A study of Mus musculus with 4 samples.

Results

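The AP-1 and BATF genes were examined in H3K4 chromatin immunoprecipitation sequencing (ChIP-seq) of mouse B cells. They comprise 10 genes chosen by name, Fos, Fosb, Fosl2, Jun, Junb, Jund, Batf, Batf3, Atf3 and Maff, of 22367 protein-coding genes of GENCODE vM1. One group was PA1-KO and the other PA1-WT, with 1 library each and an antibody labelled H3K4. Both came from splenic B cells of mice aged 6 to 14 weeks, enriched by removal of CD43-positive cells. The cells had 2 days of culture in LPS at 25 µg/ml with either dextran-bound anti-IgD at 2.5 ng/ml or IL-4 at 5 ng/ml. MNase-cut native chromatin gave libraries of about 220 bp fragments after 18 PCR cycles. The labels give neither the H3K4 methylation state nor which stimulus these libraries had. They also do not give the deleted part of PA1, any Cre driver or the number of mice behind a library. A further 2 samples of the series were not analysed here.

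AP-1 factors are pairs of basic leucine zipper (bZIP) proteins. FOS proteins bind DNA with a partner, usually a JUN protein, whereas JUN proteins can also pair among themselves, and BATF proteins pair with JUN and join IRF4 or IRF8 on shared DNA elements. Many AP-1 genes are switched on within minutes of a stimulus, and BATF is needed for class switching in mouse B cells. Methylation of H3K4 marks promoters and enhancers in use, and PA1 binds PTIP, with which it belongs to the complex of the MLL3 and MLL4 methyltransferases for that residue.

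The libraries held 5259995 nuclear reads in PA1-KO and 5539475 in PA1-WT. At the promoter of PA1 itself (2900092E17Rik in GENCODE vM1), 114 PA1-KO and 261 PA1-WT reads gave a ratio of 0.498 (0.396 to 0.624), which does not test the genotype label unless the deletion reaches the promoter. The 10 B cell marker promoters had 282 to 570 reads in PA1-KO and 342 to 585 in PA1-WT. The medians were 1 and 2 reads for 12 T and NK cell markers, where Cd2 reached 407 and 382, and 2 and 2.5 for 12 myeloid markers, where Cd14 had 118 and 171 and Csf1r 0 and 0. The summed reads of the T and NK cell list were 450 in PA1-KO and 421 in PA1-WT, and those of the myeloid list 187 and 250. For 10 erythroid and stromal markers the medians were 34 and 42, and the highest count was that of Pecam1 with 389 and 352. The part of other cells in the member values was not tested.

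Signal at the AP-1 and BATF promoters was mostly below that of PA1-WT in PA1-KO B cells, and at 6 of the 10 genes the counting interval held 1. A promoter was the 2 kb around a transcription start site (TSS), each ratio is PA1-KO over PA1-WT after scaling, and the range in brackets is its 95% interval for counting error alone. To be counted as higher or lower, a promoter needed a change of 1.5-fold or more and an interval that left out 1. Of the 10 promoters, 0 were higher, against 0.665% of the 12186 promoters compared, and 1, Batf3, was lower, against 4.9%. The interval lay wholly below 1 at 4 (Fosl2, Junb, Batf3 and Atf3), against 11.4% of all promoters compared, and wholly above 1 at 0, against 10.1%. Those 4 became 1 within 500 bp of the TSS and 1 with the level and GC trends removed, where the median log2 ratio of the members was -0.12 against -0.29 as counted. Ratios were below 1 at 9, against 49.8%, with Batf the exception. The median ratio was 0.818 over the members and 1.001 over all compared promoters. In summed reads the 10 promoters held 1947 in PA1-KO and 2563 in PA1-WT, a ratio of 0.867 (0.817 to 0.920). Leaving out Batf, the one member with a ratio above 1, was not planned and necessarily lowered this, to 0.820 (0.768 to 0.876). With bulk chromatin, fewer cells carrying the mark and less of the mark per cell cannot be told apart.

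**Figure D1:**
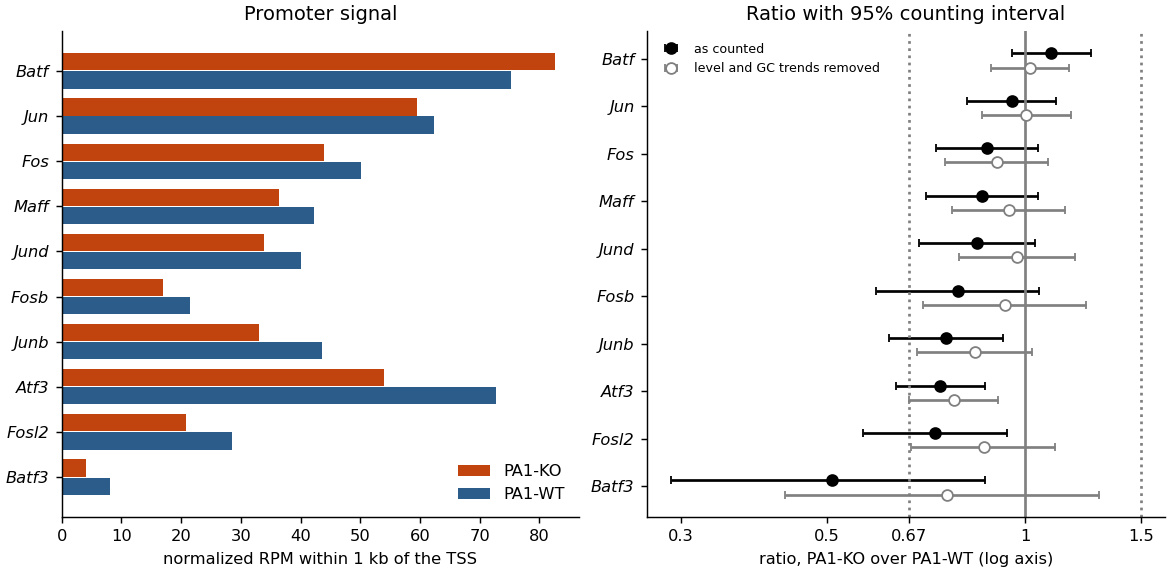
Promoter signal of the 10 genes. Left, normalized reads per 1000000 (RPM) within 1 kb of the TSS in PA1-KO (orange, upper bar) and PA1-WT (blue, lower bar), 1 library each; right, the ratio of PA1-KO over PA1-WT on a log axis with its 95% counting interval, as counted (filled) and with the trends against signal level and GC content removed (open), with dotted lines at 1.5-fold. Batf had the most signal and a ratio of 1.10, Batf3 the least and a ratio of 0.510, and the other 8 ratios ran from 0.731 to 0.954.

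All 3 FOS genes had fewer reads per library in PA1-KO than in PA1-WT, and Fosl2 had the lowest ratio of them. Fos, the founding member of the family and an immediate early gene, lies on the plus strand at chr12:86814840-86818223 in mm9. Its promoter had 222 reads in PA1-KO and 289 in PA1-WT, or 43.9 and 50.1 normalized RPM, a ratio of 0.877 (0.733 to 1.05) that counting error can hold. The first 1 kb downstream of the TSS had 146 reads in PA1-KO and 208 in PA1-WT (ratio 0.801, 0.644 to 0.995). The 1 kb before the TSS had 75 and 80, and the bin from -2 to -1 kb had 44 and 72 (0.697, 0.468 to 1.03). The split of promoter reads between both sides of the TSS was within counting error. It was 66.2% downstream in PA1-KO and 72.3% in PA1-WT (odds ratio 0.751, 0.505 to 1.12). Windows around the other annotated Fos starts, 801 and 1021 bp downstream, gave 0.876 and 0.855.

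The 250 bases before the outermost TSS are shown for Fos as the founding member of the family (NCBIM37, the assembly of mm9, chr12:86814590-86814839, plus strand). Capitals mark a TATA box (TATAAA) at -33 to -28 from the TSS, a GC box (CCGCCC) at -74 to -69 and a match to the NF-kB motif at -214 to -205.
Fos: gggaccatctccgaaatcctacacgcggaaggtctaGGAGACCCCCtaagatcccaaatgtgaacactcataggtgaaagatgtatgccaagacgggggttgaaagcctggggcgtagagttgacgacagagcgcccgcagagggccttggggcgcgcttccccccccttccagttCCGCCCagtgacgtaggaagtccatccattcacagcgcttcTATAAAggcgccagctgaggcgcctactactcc
The TATA box, searched on the gene's own strand, occurs in 8.35% of 22362 protein-coding promoters of this length. The GC box (GGGCGG or CCGCCC) occurs in 39.6% and the NF-kB match in 4.14%, the last 2 searched on both strands. Over the 12184 of these that were compared, the shares were 3.775%, 57.53% and 4.572%. No AP-1 site (TGACTCA or TGAGTCA, 3.86% of all and 2.77% of compared promoters) and no CArG box (1.34% and 1.09%) was present in this window of any of the 10 genes. Sequence further upstream was not searched. At Jund and Maff the outermost start lies at -1219 and -520 bp from the start with most reads. The bases just before the latter were therefore not searched there.

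Fosb, a FOS relative that also forms a short splice form, is on the minus strand at chr7:19888070-19895394. Its promoter had 86 reads in PA1-KO and 124 in PA1-WT, a ratio of 0.792 (0.594 to 1.05). Most of its signal sat further in, and the bin from 1 to 2 kb downstream held 139 and 164 reads with a ratio of 0.967 (0.766 to 1.22). Within 5 Mb of Fosb there were 12 positions where PA1-KO reads alone mismatched the reference and 0 where PA1-WT reads alone did, out of 53 and 1 on chromosome 7. None of the other 9 genes had a PA1-KO position within 5 Mb, and the part of strain background in the Fosb value was not tested.

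Fosl2, which encodes the FOS-related protein FRA2, lies on the plus strand at chr5:32438845-32460204 and was the one FOS gene whose interval lay below 1. The promoter had 105 reads in PA1-KO and 164 in PA1-WT, or 20.8 and 28.4 normalized RPM, and a ratio of 0.731 (0.566 to 0.939). Its interval held 1 without the level trend (0.799, 0.619 to 1.03), the GC trend (0.828, 0.642 to 1.06) or both (0.865, 0.671 to 1.11). Of the 5 bins of 1 kb around Fosl2 with 50 or more reads, 3 had intervals below 1, against 16 of 69 in all 10 windows. These 3 lay in a row upstream of the TSS, with 63, 25 and 66 reads in PA1-KO against 108, 49 and 112 in PA1-WT. The last of them is the upstream side of the promoter window, so its reads are already counted there. The promoter of Gm10463, whose start lies at -3304 bp, reaches into that stretch and had 76 and 114 reads (0.761, 0.562 to 1.03). Set against Fos within each library, Fosl2 had a ratio of ratios of 0.834 (0.609 to 1.14) and Fosb one of 0.903 (0.642 to 1.27), so the 3 FOS promoters did not differ beyond counting error. Summed, they held 413 reads in PA1-KO and 577 in PA1-WT, a ratio of 0.817 (0.718 to 0.928).

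Among the JUN genes, the Junb promoter had an interval below 1 but missed the 1.5-fold rule, and at Jun and Jund the intervals held 1. Jun, the partner shared by the FOS and BATF proteins, is on the minus strand at chr4:94715725-94718913. It had 301 reads in PA1-KO and 360 in PA1-WT, or 59.6 and 62.4 normalized RPM, a ratio of 0.954 (0.816 to 1.12) that was 1.08 without the GC trend and 1.005 without the level and GC trends. The upstream sequence of Jun is shown because it holds the one match to a variant cAMP response element among the 10 windows (NCBIM37, chr4:94718914-94719163, minus strand). Capitals mark that element (TGACATCA or TGATGTCA, 2.72% of all and 1.26% of compared promoters, both strands) at -45 to -38 and a GC box at -89 to -84.
Jun: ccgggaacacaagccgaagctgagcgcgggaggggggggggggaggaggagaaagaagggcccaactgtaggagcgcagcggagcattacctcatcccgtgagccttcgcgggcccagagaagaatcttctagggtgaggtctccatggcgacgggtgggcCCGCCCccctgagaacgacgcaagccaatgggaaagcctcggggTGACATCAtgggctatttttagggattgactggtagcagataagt
A broad island of signal, 5000 bp long, covered Jun and the start of BC042782, and held 654 reads in PA1-KO and 764 in PA1-WT (ratio 0.977, 0.879 to 1.09). Reads there cannot be assigned to one gene.

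Junb, a JUN protein abundant in activated lymphocytes, lies on the minus strand at chr8:87500811-87502617. Its promoter had 167 reads in PA1-KO and 251 in PA1-WT, or 33.1 and 43.5 normalized RPM, and a ratio of 0.759 (0.621 to 0.927). The interval held 1 without the GC trend (0.848, 0.693 to 1.04) and without both trends (0.839, 0.685 to 1.02). The first 1 kb downstream had 118 and 193 reads (ratio 0.698, 0.550 to 0.882), although the split between both sides of the TSS was within counting error (odds ratio 0.724, 0.454 to 1.16). Over the rest of its 7200 bp island, signal further downstream had 264 and 292 reads, and its ratio was 1.36 times that of the promoter (1.04 to 1.77). Jund, the JUN gene most steadily expressed across tissues, is on the plus strand at chr8:73221638-73224515. The start with most reads had 171 in PA1-KO and 231 in PA1-WT, a ratio of 0.845 (0.689 to 1.03) that was 1.01 without the GC trend. At the other annotated start, at -1219 bp, 103 and 117 reads gave 1.005 (0.763 to 1.32). Junb over Jund was 0.899 (0.674 to 1.20), and the FOS genes summed over the JUN genes summed 0.943 (0.799 to 1.11), so neither pair differed beyond counting error.

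As counted, the BATF pair differed from each other, with Batf at the top of the 10 ratios and Batf3 at the bottom. Batf, the BATF gene of B and T cells, lies on the plus strand at chr12:87027619-87050037, 212779 bp from Fos. Its promoter had 417 reads in PA1-KO and 434 in PA1-WT, or 82.5 and 75.3 normalized RPM, more than 94.6% of all compared promoters. The ratio was 1.10 (0.956 to 1.26), and 0.885 when scaled on reads outside islands. Batf3, which in mice is needed for a cross-presenting class of dendritic cells, lies on the plus strand at chr1:192922293-192932822. It had 21 reads in PA1-KO and 47 in PA1-WT, or 4.16 and 8.15 normalized RPM, and 3.06% of compared promoters had fewer reads. Its ratio was 0.510 (0.290 to 0.870). It was no longer lower by the rule with the level trend removed (0.692) or with both trends removed (0.760). Within 500 bp of the TSS, and with a 100-read minimum, Batf3 had too few reads to be compared. Batf over Batf3 gave a ratio of ratios of 2.15 (1.23 to 3.85), but 1.34 (0.768 to 2.40), an interval that holds 1, with both trends removed. Against the other 9 promoters summed, Batf stood 1.34 times higher as counted (1.15 to 1.56). Of the comparisons with Batf, only that with Batf3 was planned. Since Batf has the highest of the 10 ratios, the intervals of the others describe these libraries and support no statement. With both trends removed, the ratio of Batf to each other member had an interval above 1 at Atf3 alone.

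The upstream sequences of the pair are set side by side because they differ in composition as well as in signal (NCBIM37, plus strands, chr12:87027369-87027618 for Batf and chr1:192922043-192922292 for Batf3). GC content was 43.6% for Batf and 76% for Batf3. Capitals mark GC boxes, 1 in Batf and 5 in Batf3, and in Batf a match to the NF-kB motif at -225 to -216.
Batf: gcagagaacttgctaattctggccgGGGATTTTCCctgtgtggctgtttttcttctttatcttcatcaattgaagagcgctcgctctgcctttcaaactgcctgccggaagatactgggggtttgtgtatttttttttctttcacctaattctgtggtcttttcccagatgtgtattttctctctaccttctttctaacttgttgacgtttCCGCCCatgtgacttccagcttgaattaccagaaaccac
Batf3: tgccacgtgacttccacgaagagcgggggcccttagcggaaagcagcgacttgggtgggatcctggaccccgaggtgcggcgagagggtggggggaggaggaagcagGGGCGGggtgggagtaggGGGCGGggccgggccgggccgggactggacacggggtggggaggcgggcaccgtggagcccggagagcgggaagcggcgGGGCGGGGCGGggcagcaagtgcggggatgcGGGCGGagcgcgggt
The Batf window contains long runs of t and c, and the Batf3 window repeated g-rich stretches. A motif match describes these letters and does not show that a factor binds there.

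At Atf3 the intervals of the promoter and of its whole island lay below 1, and both ratios missed the 1.5-fold rule. ATF3 is a stress- and Toll-like receptor-induced bZIP protein that represses inflammatory genes in macrophages. The gene is on the minus strand at chr1:192994175-193007219, and its TSS lies 84926 bp from that of Batf3. Its promoter had 273 reads in PA1-KO and 419 in PA1-WT, or 54.0 and 72.7 normalized RPM, a ratio of 0.744 (0.636 to 0.868). The whole 6000 bp island had 460 and 731 reads (0.718, 0.638 to 0.808). Upstream of the promoter window the island had 117 and 186 reads (0.718, 0.565 to 0.910), and downstream of it 70 and 126 (0.634, 0.466 to 0.856). Within the island, the bins from -3 to -2 kb (0.831, 0.597 to 1.15) and from -1 to 0 kb (0.805, 0.619 to 1.04) had intervals that held 1. A separate intergenic island about 10 kb upstream had an interval that held 1. It had 75 and 78 reads, and its ratio was 1.48 times that of the Atf3 promoter (1.02 to 2.13). Batf over Atf3, a pair that was not planned, was 1.47 (1.20 to 1.82), and 1.30 (1.06 to 1.61) with both trends removed. Atf3 over Batf3, its neighbour on chromosome 1 and also not a planned pair, was 1.46 (0.833 to 2.63).

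The Atf3 sequence is shown as that of the strongest promoter among the 4 whose intervals lay below 1 (NCBIM37, chr1:193007220-193007469, minus strand). Capitals mark its 5 GC boxes, of which 2 overlap.
Atf3: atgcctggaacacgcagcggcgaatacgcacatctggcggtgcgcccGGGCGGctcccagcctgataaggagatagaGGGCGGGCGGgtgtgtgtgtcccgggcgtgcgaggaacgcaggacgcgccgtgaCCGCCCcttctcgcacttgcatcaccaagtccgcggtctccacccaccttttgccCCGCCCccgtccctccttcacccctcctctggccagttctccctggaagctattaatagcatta
As at Batf3, no match to the TATA box, the full or variant cAMP response element or the NF-kB motif was found in these 250 bases.

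**Figure D2:**
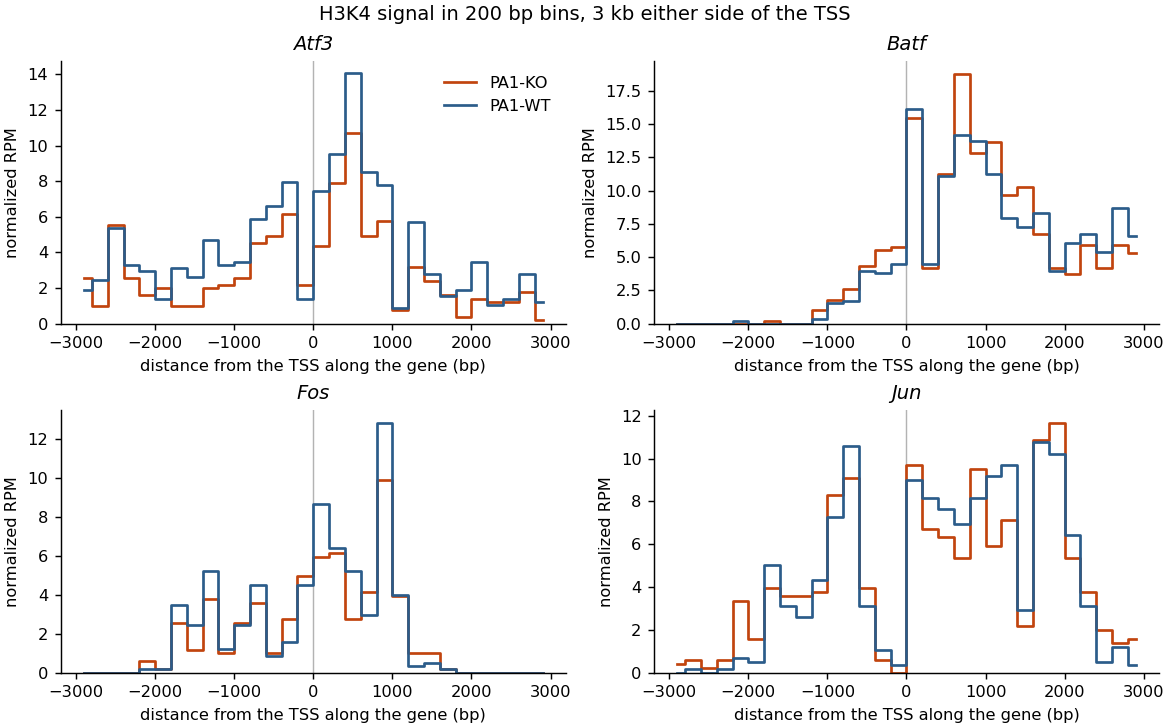
H3K4 signal around 4 starts. The x axis is distance from the TSS along the gene in bp, the y axis normalized RPM per 200 bp bin, in PA1-KO (orange) and PA1-WT (blue), 1 library each. At Atf3 the PA1-KO line lay below the PA1-WT line over most bins on both sides of the TSS, with 10.7 and 14.0 in the highest bin, whereas at Batf and Jun the lines crossed repeatedly.

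Maff encodes a small MAF protein that has no activation domain of its own. The gene is on the plus strand at chr15:79177971-79189502. Its promoter had 184 reads in PA1-KO and 244 in PA1-WT, or 36.4 and 42.3 normalized RPM, a ratio of 0.861 (0.707 to 1.05). The other start, at -520 bp, gave 0.847 (0.692 to 1.04). Its upstream window held the one exact match to the full cAMP response element among the 10, at -50 to -43 from the outermost TSS. That element (TGACGTCA) occurs in 1.91% of all and 2.79% of compared promoters. Shorter forms, such as the tgacgt in the Fos sequence above, were not searched.

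Over 40 kb around each start, the summed signal of the members was also below that of PA1-WT. The 10 windows summed to 6590 reads in PA1-KO and 8289 in PA1-WT, a ratio of 0.907 (0.878 to 0.937). The flanks, which leave out every annotated promoter, gave 3222 and 4108 reads and a ratio of 0.895 (0.855 to 0.938). By gene, 4 window intervals were below 1, against 11.5% of the windows of all compared genes, namely at Fosl2 (246 and 387 reads, 0.725), Jund (458 and 608, 0.860), Atf3 (595 and 887, 0.766) and Maff (404 and 531, 0.868). Window ratios were below 1 at 9 genes, against 42.2%. Jun had the one above 1, at 1.02, and it was below 1 under both other scalings. Flank ratios were below 1 at 9 genes. Flank intervals lay below 1 at 4, Fosl2 (0.681), Junb (0.891), Batf (0.871) and Atf3 (0.789). The share over the flanks of all genes was not computed. The Jun flank, with 220 reads in PA1-KO and 198 in PA1-WT, had a ratio of 1.27 (1.04 to 1.54). Its interval held 1 when scaled on total reads (1.17, 0.961 to 1.43) or on background (1.02, 0.841 to 1.25).

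**Figure D3:**
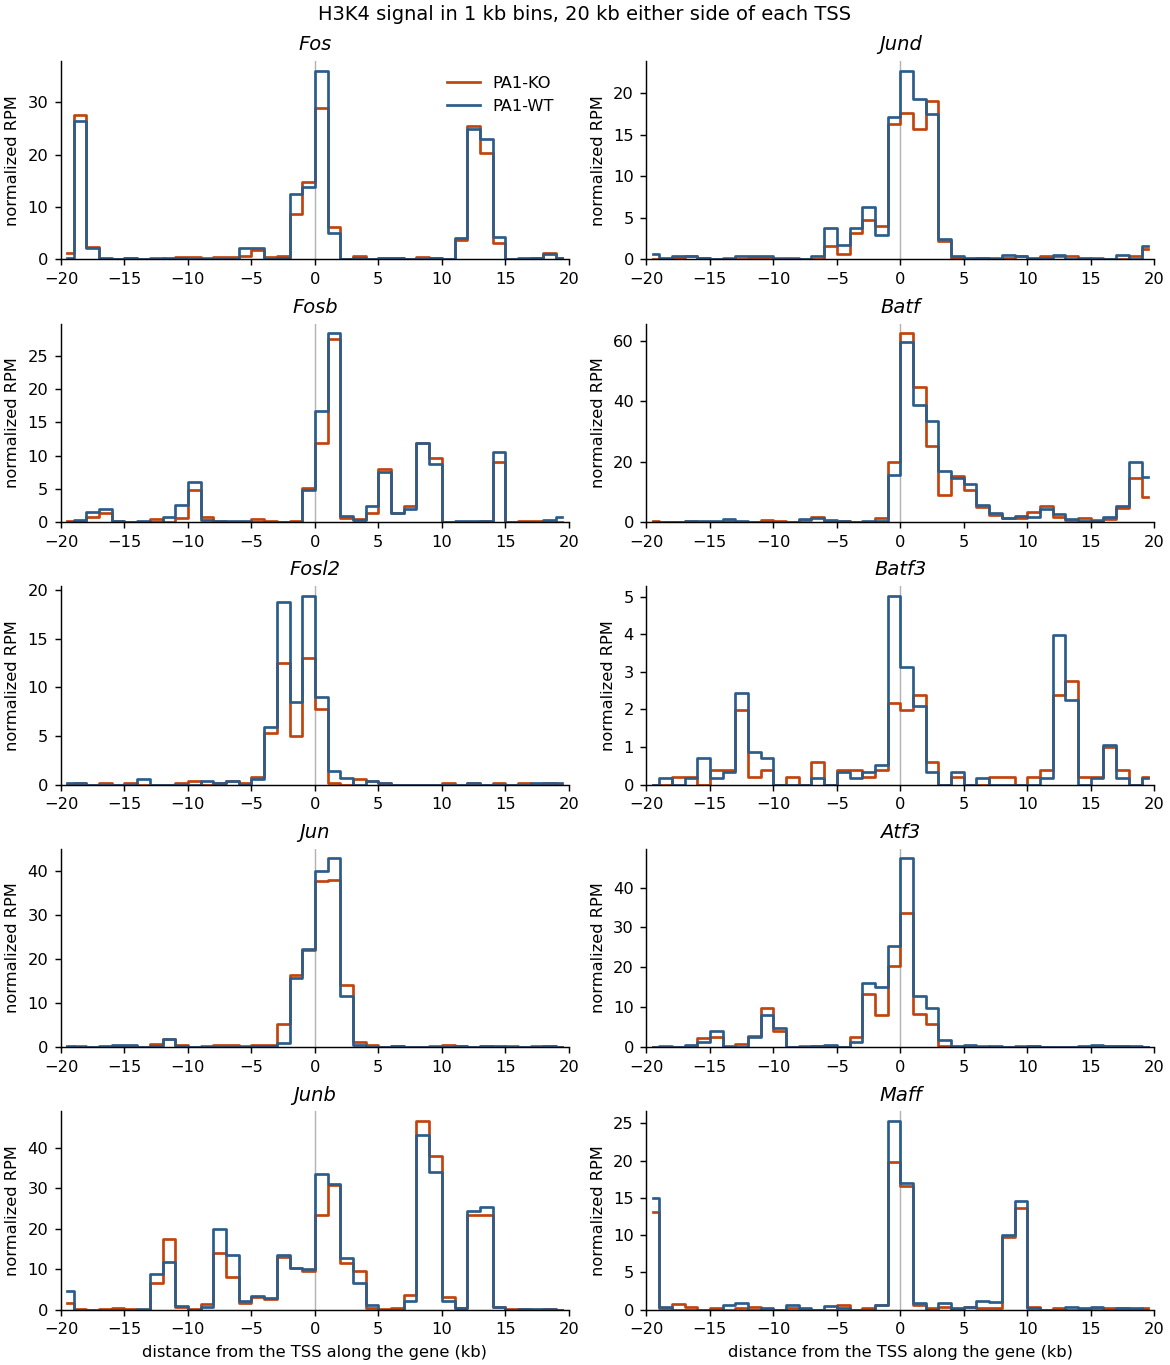
H3K4 signal in 1 kb bins from 20 kb before to 20 kb after the TSS of each gene. The x axis is distance from the TSS along the gene in kb and the y axis normalized RPM per bin, in PA1-KO (orange) and PA1-WT (blue), 1 library each, with a separate y scale per gene. Batf spread over several kb downstream of its TSS and had a second rise near 18 kb, Fos was flanked by peaks near -18 and 13 kb, and Batf3 stayed near 5 or less.

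The width of the promoter islands ranged from 800 bp at Batf3 to 7200 bp at Junb. Batf3 had 1800 bp at a Poisson probability under 1e-03, and Fosl2 4600 bp in place of 2200 bp when gaps of up to 600 bp were joined. Batf had 6400 bp (98.3% of promoter islands were narrower), Atf3 6000 bp, Jun 5000 bp and Jund 4400 bp, and Maff had 1800 bp (38.2% narrower). The Batf island held 941 reads in PA1-KO and 1095 in PA1-WT, a ratio of 0.981 (0.898 to 1.07), below its promoter ratio. Beyond the promoter window it had 522 and 661 reads, 0.822 times the promoter's ratio (0.686 to 0.985). Among the 10 promoter islands, intervals below 1 were found at Fos (0.856, 0.732 to 0.9999), Fosl2 (0.669, 0.527 to 0.845), Batf3 (0.465, 0.208 to 0.968) and Atf3. The share with such an interval was 9.38% over all islands, those away from promoters (6.99%) included. It was not computed for promoter islands alone.

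Away from annotated starts, the 10 windows held 16 islands, 13 with a ratio below 1, against 52.1% of all 11340 islands of this kind, and 3 with an interval below 1, against 6.99%. The one with the most reads lay downstream of Fos. Before the gene, an intergenic island centred at -18440 bp (chr12:86795801-86797000) had 150 reads in PA1-KO and 163 in PA1-WT (1.05, 0.836 to 1.32, and below 1 when scaled on background), and the island at 13060 bp (chr12:86826601-86829200) had 261 and 321 (0.928, 0.785 to 1.10). Relative to the Fos promoter their ratios were 1.20 (0.894 to 1.60) and 1.06 (0.827 to 1.35), so they did not differ from it beyond counting error.

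Inside Batf, an intronic island centred 18381 bp downstream of the TSS (chr12:87044601-87047400) had an interval below 1, short of the 1.5-fold rule, while that of the promoter held 1. It had 138 reads in PA1-KO and 229 in PA1-WT, a ratio of 0.688 (0.553 to 0.853), and relative to the Batf promoter 0.627 (0.484 to 0.811). Upstream of Junb, an intergenic island centred at -7083 bp (chr8:87508801-87510600) had 111 and 188 reads, a ratio of 0.674 (0.528 to 0.857), which was 0.888 times that of the Junb promoter (0.646 to 1.22). Beside Junb, the island over the starts of Prdx2 and Rnaseh2a had 458 and 466 reads and a ratio 1.48 times that of Junb (1.16 to 1.88), whereas a second Rnaseh2a island with 231 and 279 reads did not differ from Junb beyond counting error (1.24, 0.949 to 1.63). Likewise the Hook2 promoter island had 122 and 117 reads, 1.57 times the ratio of Junb (1.12 to 2.19). Of all 33 islands in the 10 windows 0 were higher, against 3.35% of 24957 islands, and 2 were lower, against 5.39%. Those 2 were the Batf3 promoter island and a small one in an exon of Hook2, with 7 and 22 reads.

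The members have GC-rich promoters, and in these libraries GC content and signal level moved with the ratio. GC content within 1 kb of the TSS had a median of 60.2% over the members and 54.1% over all compared promoters, and 9 of 10 members, all but Batf at 52.1%, were above 54.1%. Over all promoters the median ratio was 0.880 at 60 to 65% GC, 0.949 at 55 to 60% and 1.03 at 50 to 55%. It was 0.736 at 50 to 100 reads and 1.07 at 800 or more. With both trends removed the members' median moved as given above, and 1 of the 10 intervals lay below 1, that of Atf3, against 4.73% of all promoters under the same setting. The part of GC content and level in each gene's value was not tested further.

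**Figure D4:**
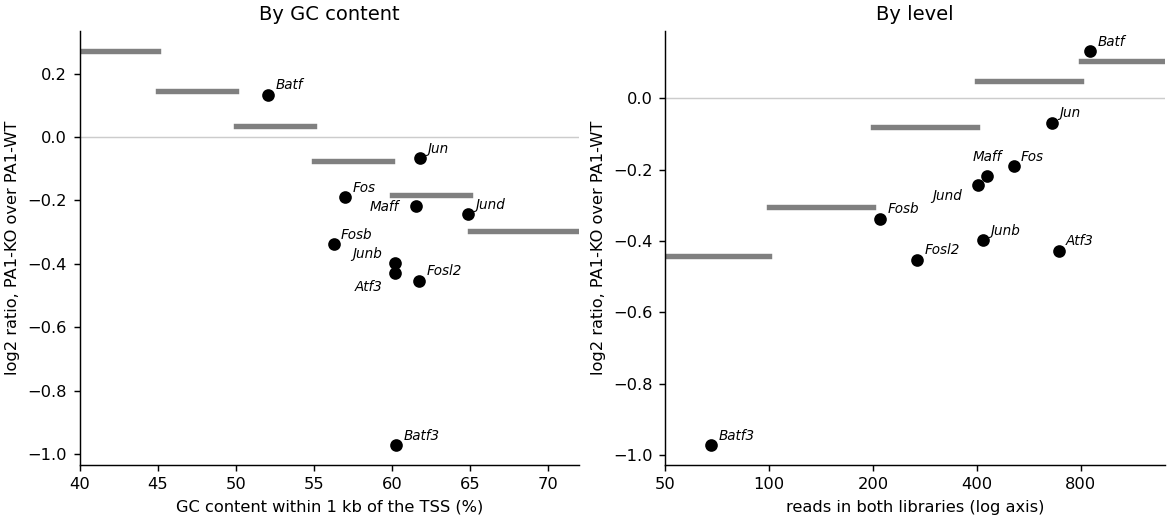
Ratio against GC content and signal level. Points are the 10 genes; the y axis is the log2 ratio of PA1-KO over PA1-WT, the x axis GC content in percent (left) or the reads of both libraries together on a log axis (right), and grey lines are medians of all compared promoters in each bin. All genes but Jun and Batf lay under the grey line in both panels, among them Atf3 (log2 ratio -0.43) and Fosl2 (-0.45). Jun lay above it for GC content alone, and Batf (0.13) above it in both.

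Of the other bZIP genes, 30 promoters were compared. Against the shares of 0.665% higher and 4.9% lower over all promoters, 0 were higher and 3 lower, and the median ratio was 0.986. The lower ones were Cebpb (29 reads in PA1-KO and 65 in PA1-WT, ratio 0.509), an activator of acute-phase and myeloid genes, Fosl1 (80 and 152, 0.601), the FOS relative FRA1, and Nfe2 (34 and 63, 0.616), an erythroid and platelet factor. At the other end stood Bach2 (237 and 203, 1.33, 1.10 to 1.62), a repressor that holds off plasma cell differentiation, and Atf6 (515 and 467, 1.26, 1.11 to 1.43), a sensor of endoplasmic reticulum stress, both under the 1.5-fold threshold. With both trends removed, 0 of the 30 were lower.

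Immediate early genes, which share the rapid induction of Fos and Jun, had 22 compared promoters and a median ratio of 0.901. Against 0.665% higher and 4.9% lower over all promoters, 0 were higher and 2, Nr4a2 and Klf2, lower. Ratios were below 1 at 17, against 49.8%. Without the GC trend, and without both trends, 0 of the 22 were lower. Nr4a2, an orphan nuclear receptor, had 143 reads in PA1-KO and 252 in PA1-WT (0.648, 0.524 to 0.798), and Klf2, a regulator of lymphocyte quiescence and homing, had 70 and 123 (0.650, 0.477 to 0.878). The highest ratios were those of Rel, an NF-kB subunit (1.10, 0.937 to 1.28), and Klf6, a zinc-finger factor (1.09, 0.928 to 1.27), whose intervals held 1. The kinases, phosphatases and ETS factors that act on AP-1 had 26 promoters with a median of 0.974. Of these, 0 were higher and 1 lower, against the same 0.665% and 4.9% over all promoters. Mapk12, a p38 kinase, was the lower one, with 18 reads in PA1-KO and 60 in PA1-WT (0.342, 0.190 to 0.588). Next lowest was Mapk13, another p38 kinase (25 and 40, 0.713, 0.415 to 1.20), and the highest were the ETS factor Elk1 (137 and 122, 1.28, 0.997 to 1.65) and the kinase Map2k4 (118 and 106, 1.27, 0.969 to 1.67).

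The partners and targets of BATF had 14 compared promoters with a median of 1.03. Of these, 2 were higher, against 0.665% of all promoters, and 1 was lower, against 4.9%. Like the members and the other lists, these genes were chosen with earlier results of these data known. The counts beside these shares are therefore description only. Ctla4, an inhibitory receptor, had 195 reads in PA1-KO and 70 in PA1-WT (3.18, 2.41 to 4.24), and Cd69, an early activation marker, had 455 and 332 (1.56, 1.35 to 1.81), which was under 1.5-fold with either other scaling. Il6, a cytokine gene, was lower, with 109 and 208 reads (0.598, 0.470 to 0.758), and next came the cyclin Ccnd2 with 242 and 336 (0.822, 0.694 to 0.973). At the partner genes Irf4 (474 and 582, 0.929) and Irf8 (645 and 744, 0.989) the intervals held 1.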

How the data were processed

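H3K4 ChIP-seq reads of 1 PA1-KO and 1 PA1-WT B cell library were used. The authors deposited mapped read positions, 1 line of 25 bases per read with strand and a match descriptor, with no normalized value and no repeated position and strand. Per the submitters' processing notes, mm9 and SICER were part of their processing, and the sources used here do not name the aligner. With repeats absent, strong promoters are compressed slightly, and at most 10.8% of the positions of a member promoter were filled.

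From these positions (1-based, on NCBIM37) each 5′ end was moved 75 bp. Reads were counted within 1 kb of the annotated TSS with most reads, in 1 kb bins to 20 kb, and in islands (200 bp windows, Poisson probability under 1e-05 over 80% of the genome, gaps up to 200 bp, 20 or more reads). Islands away from promoters lay over 1 kb from any TSS. Genes with 50 or more reads in both libraries together were compared, all 10 members among them. Scaling was the trimmed mean of M values (trims of 30% and 5%, factor 0.923) on compared promoters. Normalized RPM is per 1000000 nuclear reads after scaling. Ratios have exact conditional binomial (Clopper-Pearson) 95% intervals, and ratios of ratios, which need no scaling, exact conditional odds ratio intervals. With 1 library per genotype there was no replicate check and no test, and since amplified reads lacked molecular identifiers, intervals cover counting error only. Between 94.9% and 100% of 25-base reads in each member promoter were unique in the genome. Scaling by total reads or by reads outside islands, window sizes, read minimums, the fragment shift, level and GC trends, filled positions and equal depth were varied, with the TSS kept. Named genes were the members, genes in their windows and, per list, those past the 1.5-fold rule and the 2 highest and 2 lowest ratios; Irf4 and Irf8 were added after their values were seen. Members and lists were chosen with earlier results of these data known. Cebpd, 1 of 32 other bZIP genes, and 1 of 13 myeloid names were not matched. Upstream sequences are from NCBIM37, with motif shares over promoters of the same length. Python 3.11.15, numpy 2.4.6, scipy 1.17.1, pandas 2.3.3 and pysam 0.24.0 were used, and the counting and ratio steps were tested on simulated data.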

Additional observations from a re-analysis of the deposited data

How the results depend on the processing

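Scaling on reads outside islands moved the median log2 ratio of all promoters by -0.31 and scaling on total reads put it at -0.11. The members' median relative to all promoters was -0.29 under each. A scaling multiplies every ratio by the same factor, so it cannot change that difference. The members' median log2 ratio itself, -0.29 as reported, was -0.41 with total reads, -0.60 with background, -0.16 within 500 bp, -0.18 without the GC trend and -0.12 without both trends. Their 40 kb window ratio, 0.907, was 0.837 with total reads and 0.733 with background, and the flank ratio, 0.895, was 0.826 and 0.723. The number of members called lower, 1, was 5 with background scaling, 2 within 2 kb of the TSS, and 0 within 500 bp, with a 100-read minimum, without the level trend or without both trends. Batf3 had too few reads to be compared within 500 bp or with the 100-read minimum. All promoters called higher, 81, were 40 with total reads, 17 with background, 140 within 500 bp, 233 without the level trend, 43 without the GC trend and 151 without both. Those called lower, 597, were 948 with total reads, 2034 with background, 353 with the 100-read minimum, 173 without the level trend and 125 without both. Over the other lists together, 2 called higher became 1 with total reads or background, within 2 kb, and without the level, GC or both trends, and 7 called lower became 21 with background, 4 with the 100-read minimum or without the level trend, and 2 without both trends. The cause was not tested. For 14 pairs of members the ratio of ratios was also computed without both trends, an alternative chosen after seeing the data, and each stayed within its interval as counted. Atf3 was below 1 in all 12 alternatives (0.600 to 0.872), past 1.5-fold with background scaling alone, and within 500 bp of the TSS its interval held 1 (0.697 to 1.09). Fos, Fosb, Fosl2, Junb, Batf3 and Maff were also below 1 in every alternative that gave a value. At Batf3, 21 and 47 reads limit any statement, and with 1 library per genotype spread between animals is unknown. No paired analysis was possible because each genotype has 1 library.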

Other observations

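Inside the windows of the 10 genes, 2 stretches were singled out after their values were seen. From 2 to 4 kb downstream of the Batf TSS, 172 reads in PA1-KO and 290 in PA1-WT gave a ratio of 0.677 (0.557 to 0.820), which relative to the Batf promoter was 0.618 (0.486 to 0.783). From 3 to 2 kb upstream of the Jun TSS, 26 reads in PA1-KO and 6 in PA1-WT gave a ratio of 4.95 (1.99 to 14.7), at the edge of the Jun island. Since both were picked for their values, their intervals describe these libraries and support no statement.

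Promoters in the neighbourhood of the members were close to the median of all promoters. Within 1 Mb of each member the median ratio ran from 0.931 around Jund (77 promoters) to 1.12 around Jun (7 promoters). Around Atf3 it was 0.949 over 18 promoters, of which 1, Batf3 itself, was lower, and around Fosl2 it was 1.11 over 25 promoters, 1 of which was lower. Jund had 4 lower promoters of 77 around it and Fosb 3 of 36. No promoter was counted higher within 1 Mb of any of the 10 genes, which is left out of its own count. Over all compared promoters, 0.665% were higher and 4.9% lower. Whether the counts around the members differed from these shares was not tested.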
